A study of Mus musculus with 4 samples.

Results

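Late B spermatogonia are the last mitotic spermatogonia before germ cells become preleptotene spermatocytes and enter meiosis. Here they were the cells with transcripts of *Rec8*, the meiosis-specific kleisin subunit of cohesin, and *Ctcfl* (also called BORIS), the germ cell paralog of the chromatin insulator gene *Ctcf*. A cell was taken when it held at least 3 UMIs (unique molecular identifiers, counted transcript molecules) of *Ddx4* and *Dazl* together, at least 1 UMI of *Rec8*, at least 3 UMIs of *Rec8* and *Ctcfl* together, fewer than 10 UMIs of *Stra8* per 10000, at most 2 UMIs of *Dmrtb1*, at most 1 UMI of *Gfra1* and *Ret*, and fewer than 5 UMIs of *Prdm9*, *Dmc1* and *Meiob* per 10000. This gate held 1071 of 29592 cells, namely 282 of 6334 in wild type replicate 1, 267 of 8494 in wild type replicate 2, 263 of 7550 in *Meioc*-null replicate 1 and 259 of 7214 in *Meioc*-null replicate 2. The cells were chosen by their own transcript counts of these genes, so levels of the gate genes and the contrast with other stages are given as a description, with no test.

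The 4 libraries came from testes of C57BL/6N mice at postnatal day 15, 2 of them wild type and 2 *Meioc*-null (homozygous for *Meioc* tm1.1Dpc). Each of 2 batches was 1 litter and held 1 wild-type and 1 *Meioc*-null pup, with 1 testis per pup, and both genotypes were also heterozygous for *Hspa2* tm1Dix and homozygous for a *ROSA26-tdTomato* reporter whose stop cassette was intact. The comparison asks how transcript levels of these cells differ without MEIOC, a germ cell protein that binds YTHDC2 and RBM46. The study concludes that MEIOC raises the competence of spermatogenic cells to begin meiosis but is not strictly required for it. With 2 mice per genotype, gene p-values rest on the spread between these 4 mice, moderated by the spread of all genes tested. A small p for 1 gene therefore does not measure the spread of the mice in that gene alone. The libraries held 158291903 to 190455307 UMIs over 11986 to 16486 barcodes, and any 2 libraries shared 12 to 16 barcode sequences among the cells kept. Below, library values are listed in the order wild type 1, wild type 2, *Meioc*-null 1, *Meioc*-null 2, and levels are UMIs per 1000000 UMIs of the pooled cells (CPM).

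In the mouse, differentiating spermatogonia divide under retinoic acid and KIT signalling, and late B cells give rise to preleptotene spermatocytes, in which STRA8 and its partner MEIOSIN (annotated here as *Gm4969*) activate meiotic genes. Cohesin rings that hold sister chromatids together contain RAD21 in mitotic cells. In meiosis REC8, STAG3 and SMC1B take the place of mitotic subunits, and the cohesin core carries the axis proteins (SYCP2, SYCP3, HORMAD1) and the synaptonemal complex (SYCP1, SYCE1, SYCE2, TEX12). E2F6 and MGA belong to PRC1.6, a Polycomb complex known to silence germline genes outside the germ line.

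The 4 marker genes of the label, *Rec8*, *Ctcfl*, *Esx1* and *Sohlh1*, were detected in every library, but the gate was not pure. Cells with more than 10 UMIs of 6 Sertoli markers (*Sox9*, *Cldn11*, *Wt1*, *Rhox8*, *Aard* and *Gata4*, genes of the somatic cells that nurse the germ cells) numbered 19, 24, 31 and 29, together 103 or 9.62% of the gate. They had medians of 58010, 63972.5, 50627 and 66554 UMIs and supplied 18.6%, 24.7%, 29.4% and 26.6% of all UMIs of the gate. Only 7 cells of the gate held 11 to 20 Sertoli UMIs, against 743 with 0 or 1 and 225 with 2 to 10. A further 22 cells passed the same limit for 22 markers of Leydig, peritubular myoid, endothelial and macrophage cells, and 41 cells held at least 5 UMIs of *Id4*, *Etv5*, *Zbtb16*, *Upp1* and *Lhx1*, genes of undifferentiated spermatogonia.

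**Figure D1:**
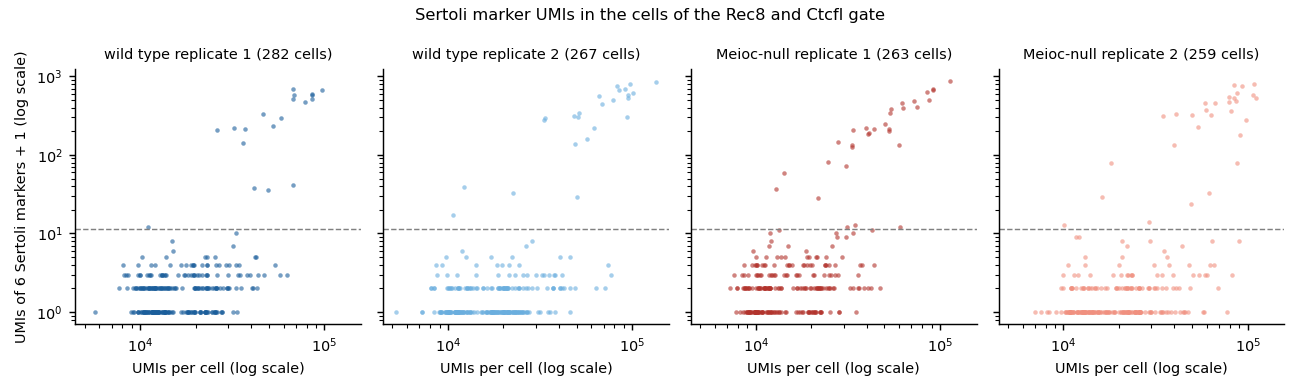
UMIs of 6 Sertoli markers plus 1 (vertical, log scale) against all UMIs (horizontal, log scale) in each cell of the gate, with 1 panel per library and 1 point per cell; the dashed line separates cells with more than 10 marker UMIs. In every library a separate group of 19 to 31 cells with high totals lies above the line.

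Removing all of these cells left a narrowed set of 249, 228, 217 and 211 cells (905, or 84.5% of the gate), with median totals of 13998, 17372.5, 12506 and 18529 UMIs. In it the summed level of the Sertoli markers was 32.4 to 90.7 CPM, against 1131 to 1608 CPM in the whole gate, and the 5 myoid markers (*Acta2*, *Myh11*, *Tagln*, *Myl9* and *Actg2*) stood at 27.0, 13.7, 29.3 and 17.0 CPM, against 162, 115, 481 and 471 CPM in the gate. All 6 Sertoli markers still had UMIs in every library of the narrowed set, while *Cyp17a1* (Leydig), *Ly6c1* (endothelium), *Adgre1* and *Itgam* (macrophage) were at 0. Scrublet's top-scoring barcodes made up 136 cells of the gate, 43 of them among the 103 cells with Sertoli markers and 57 in the narrowed set. The limits of the narrowed set were chosen after the data were seen. Results are given for the gate and for the narrowed set.

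No difference between genotypes beyond the spread of the mice was detected in the share of germ cells that the gate took. Its cells were 5.78% (exact binomial 95% interval 5.14 to 6.48), 3.78% (3.35 to 4.25), 4.41% (3.91 to 4.97) and 4.56% (4.03 to 5.13) of cells with at least 3 *Ddx4* and *Dazl* UMIs, and these intervals cover counting error only. Both wild-type values lay outside the range of the *Meioc*-null pair, 1 above and 1 below it. The mean was 4.78% ± 1.42 (SD, n = 2) in wild type and 4.49% ± 0.101 (SD, n = 2) in *Meioc*-null, a difference of 0.296 percentage points (exact permutation test, two-sided, p = 1.0, where 0.3333 is the smallest p that 2 against 2 libraries allow). The difference was 1.37 points in batch 1 and -0.778 points in batch 2.

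At the edge of the rule, 162, 191, 195 and 199 cells met every other term with 2 UMIs of *Rec8* and *Ctcfl*, just outside, and 118, 130, 127 and 109 cells held 3, just inside. *Meioc* was at 275, 215, 262 and 226 CPM in cells with 2 such UMIs and at 319, 312, 315 and 221 CPM in those with 3. *Esx1*, an X-linked homeobox gene, was at 192, 107, 151 and 147 CPM just outside and at 214, 139, 176 and 142 CPM just inside. Both genes were higher just inside the limit in 3 of 4 libraries and lower in *Meioc*-null 2. *Sohlh1* was at 78.8, 134, 107 and 122 CPM just outside and at 113, 89.4, 74.4 and 101 CPM just inside, lower inside the limit in 3 of 4 libraries and higher in wild type 1. Within the gate the median cell held 4 UMIs of *Rec8* and *Ctcfl* in each library, and 227 cells held none of *Ctcfl*.

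The narrowed set was placed beside 4 other germ cell stages gated on their own markers, namely undifferentiated cells, *Dmrtb1*-positive cells (at least 3 *Dmrtb1* UMIs), preleptotene cells (at least 10 *Stra8* UMIs per 10000 and 3 of *Meioc*) and leptotene cells (at least 5 UMIs of *Prdm9*, *Dmc1* and *Meiob* per 10000). *Rec8* was at 142, 119, 166 and 128 CPM in late B cells, at 13.5 to 24.5 CPM in *Dmrtb1*-positive cells and at 69.5 to 98.6 CPM in preleptotene cells. *Ctcfl* was at 108, 108, 98.5 and 79.6 CPM in late B cells, at 19.2 to 28.03 CPM one stage earlier and at 59.1 to 71.5 CPM one stage later. Both genes, which the rule used, were highest in late B cells in every library. Sertoli cells, which should lack germ cell transcripts, held 0 to 4.04 CPM of *Ctcfl* but 23.1 to 40.4 CPM of *Rec8*.

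*Esx1*, which the rule did not use, reached 275, 192, 238 and 208 CPM in late B cells and was highest there in all 4 libraries, although *Dmrtb1*-positive cells had 251, 154, 188 and 175 CPM. *Sohlh1*, a bHLH factor of differentiating spermatogonia, was at 77.2, 74.96, 79.7 and 86.1 CPM, below the 104 to 119 CPM of *Dmrtb1*-positive cells and the 127 to 166 CPM of undifferentiated cells, so this label marker was highest before the late B stage. *Kit*, the receptor of differentiating spermatogonia, held 138, 153, 162 and 158 CPM in late B cells. Its ranges in *Dmrtb1*-positive cells (145 to 186 CPM) and in preleptotene cells (154 to 191 CPM) overlap that range. *Ccnd2*, a G1 cyclin, had already fallen from 446 to 479 CPM in undifferentiated cells to 4.09 to 6.74 CPM in *Dmrtb1*-positive cells, and stood at 4.85 to 7.93 CPM in late B cells.

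Of the genes of meiotic entry, *Meioc* and *Gm4969* had higher levels at each later stage. *Meioc* went from 179 to 232 CPM in *Dmrtb1*-positive cells to 437, 444, 444 and 363 CPM in late B cells and 612 to 661 CPM in preleptotene cells, which were gated partly on *Meioc*. *Gm4969* was at 7.03 to 9.06 CPM, then at 24.0, 22.2, 9.58 and 12.6 CPM, then at 45.3 to 93.3 CPM in the same 3 stages. *Ythdc2*, the RNA helicase partner of MEIOC, read 152, 163, 140 and 136 CPM in late B cells, between 125 to 133 CPM before and 193 to 211 CPM after. *Rbm46*, the RNA-binding partner, had close levels throughout, with 276 to 282 CPM in *Dmrtb1*-positive cells, 252, 253, 279 and 256 CPM in late B cells and 248 to 266 CPM in preleptotene cells.

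**Figure D2:**
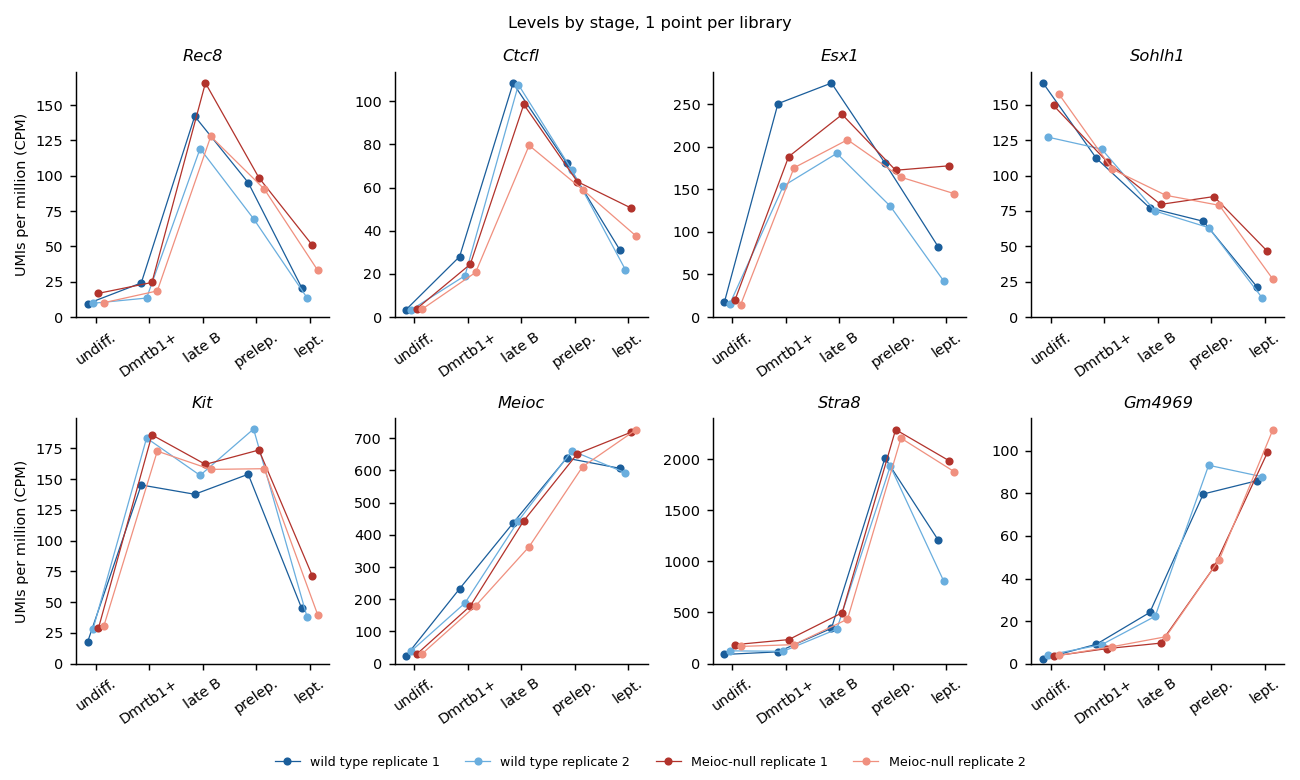
Levels of 8 genes (CPM, linear axes from 0) in undifferentiated (undiff.), *Dmrtb1*-positive (Dmrtb1+), late B (narrowed set), preleptotene (prelep.) and leptotene (lept.) cells, with 1 point and 1 line per library (blue wild type, red *Meioc*-null, the darker shade replicate 1). The sets at both ends were not narrowed. *Rec8* and *Ctcfl*, by which the rule chose the late B cells, peak there. *Sohlh1* is lower in late B than in *Dmrtb1*-positive cells, and *Meioc*, *Stra8* and *Gm4969* are higher in preleptotene than in late B cells.

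Of 6541 genes with at least 20 CPM in the narrowed set, 2123 (32.5%) lay between the *Dmrtb1*-positive and the preleptotene level in all 4 libraries, 844 (12.9%) lay above both and 393 (6.01%) below both. A ratio of at least 1.5 to the highest of the other 4 stages was seen for 16 genes, among them *2610008E11Rik* (1.88) and *Rnf5* (1.77). *Rec8* (1.57) and *Ctcfl* (1.51) were also among them, but the rule chose cells by these 2 genes, so their ratios follow from it. The 4 highest ratios belonged to globin genes that rested on 1 library: *Hbb-bs* was at 804, 7.57, 7.19 and 1.87 CPM. In the whole gate the 20 highest ratios, 11.48 to 19.5, belonged to genes such as *Stra6*, *Cidea*, *Defb36* and *Cst9*, and all 20 were higher in Sertoli cells than in the gate.

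Transcripts of the cell cycle varied widely from cell to cell. The summed G2/M genes took a median of 62.1, 85.0, 60.6 and 85.1 UMIs per 10000 in the cells of the narrowed set, with lower quartiles of 45.8 to 53.0 and upper quartiles of 110 to 184, while the S phase genes had medians of 56.1 to 58.1 and upper quartiles of 66.8 to 69.8. Batch 2 had the higher G2/M median in both genotypes, and the quartile ranges of all 4 libraries overlapped. Pooled, the G2/M list summed to 11355, 12441, 10159 and 12866 CPM, against 14495 to 15567 CPM in *Dmrtb1*-positive cells and 8457 to 11204 CPM in preleptotene cells. *Stra8*, capped by the rule, had medians of 2.79, 2.96, 4.82 and 3.46 UMIs per 10000.

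In the whole gate, 16 of 7611 genes (0.210%, 0.0526% higher in wild type and 0.158% lower) differed between genotypes at a Benjamini-Hochberg adjusted p below 0.05 in edgeR's quasi-likelihood test with a log2 fold change (wild type/*Meioc*-null) beyond 0.1, and 535 had an unadjusted p below 0.05. A gene was tested when 25% or more of the cells of either genotype held a UMI of it. A gene that reached this share in only 1 genotype entered through a difference in detection, so the filter favours a call in that direction. Such genes numbered 80 for wild type and 389 for *Meioc*-null, of which 2 and 3 passed. Of the 16 genes, 11 reached this share in both genotypes, while *Gm884* and *Rsph1* reached it in wild type only and *Acta2*, *Flna* and *Pam* in *Meioc*-null only. The 4 that were higher in wild type were *Stag3*, *Sycp2*, *Gm884* and *Rsph1*, and the 12 that were higher in *Meioc*-null included the smooth muscle genes *Acta2*, *Tpm1* and *Mylk*, filamin (*Flna*), and the immediate early genes *Egr1* and *Btg2*. *Acta2* was at 83.9, 56.5, 257 and 258 CPM, which gave -1.87 ± 0.15 on the log2 scale (SE, adjusted p = 7.3e-07); it was detected in 23.5% of wild-type and 25.9% of *Meioc*-null cells. Both *Meioc*-null values stood above both wild-type values, as did those of the summed myoid markers. In the narrowed set *Acta2* was at 16.2, 8.55, 12.9 and 8.87 CPM, with overlapping groups, and the log2 fold change of *Tpm1* went from -0.87 ± 0.13 (adjusted p = 0.0012) to 0.09 ± 0.17 (adjusted p = 0.97) and that of *Mylk* from -0.74 ± 0.13 (adjusted p = 0.010) to 0.32 ± 0.18 (adjusted p = 0.77). With the top-scoring Scrublet barcodes removed, 2 of the 16 calls were left, both higher in wild type (*Stag3*, 0.89, and *Gm884*, 1.89), none was higher in *Meioc*-null, and *Egr1* read 0.40. In fits with a library left out, 1 genotype has a single mouse, which is assumed to vary like the others. Without 1 library, the count of 16 became 30 (wild type 1 left out), 49 (wild type 2), 38 (*Meioc*-null 1) and 108 (*Meioc*-null 2).

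In the narrowed set 17 of 7038 genes (0.242%) passed, 2 up in wild type (0.0284%, *Stag3* and *Gm884*) and 15 up in *Meioc*-null (0.213%), and 5 were shared with the 16 of the gate (*Gm884*, *Mindy2*, *Ro60*, *Stag3* and *Stxbp3*). Of the 17, 12 reached 25% of cells in both genotypes, *Gm884* in wild type only and *Fez2*, *Ro60*, *Rrm2b* and *Smagp* in *Meioc*-null only. The count was 24, 41, 7 and 12 without wild type 1, wild type 2, *Meioc*-null 1 and *Meioc*-null 2. Since each replicate number is a litter, the fit was repeated with the replicate number as a block. It called 128 genes in the gate (1.68%), of which 53 (0.696%) were up in wild type and 75 (0.985%) in *Meioc*-null, and 348 in the narrowed set (4.94%), 117 and 231 by direction, including all 16 and all 17. Of the 348, 303 were among the 6605 genes that reached 25% of cells in both genotypes (4.59%). With the top-scoring Scrublet barcodes removed as well, the blocked count in the narrowed set was 193. The block spends a further term on 4 libraries, which leaves little spread of each gene's own to measure. Its p-values, also very small ones, therefore rest mainly on the moderated spread of all genes tested. The shares of the narrowed set with the block, 1.66% of genes up in wild type and 3.28% up in *Meioc*-null, are the background for the list counts below.

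Among genes of meiotic chromosome structure, *Stag3* was higher in wild type in the gate and in the narrowed set, with and without the block, *Sycp2* in 3 of these 4 fits, and the others that passed did so with the block only. *Stag3* (chr5:138280240-138312393, + strand, GRCm38), the meiotic STAG subunit of cohesin, was at 266, 264, 155 and 146 CPM in the narrowed set, so that both wild-type values lay well above both *Meioc*-null values. Its log2 fold change was 0.84 ± 0.12 (adjusted p = 0.0074) in the narrowed set and 0.88 ± 0.13 (adjusted p = 0.00077) in the gate, and in the gate it passed with each library left out, at 0.81 to 0.93. *Sycp2*, which encodes an axis protein, was at 177, 186, 125 and 121 CPM, again with no overlap. Its fold change of 0.64 ± 0.13 passed in the gate (adjusted p = 0.025) and that of 0.59 ± 0.12 in the narrowed set passed with the block (adjusted p = 5.9e-07) but not without it (adjusted p = 0.052); without wild type 2 the gate value was 0.51 (adjusted p = 0.17).

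*Sycp1*, the transverse filament of the synaptonemal complex, was at 1069, 1343, 769 and 929 CPM. *Smc1b*, the meiotic SMC1 of cohesin, was at 742, 796, 506 and 611 CPM. *Tex12*, a central element gene, was at 180, 173, 111 and 124 CPM. For all 3 the genotypes did not overlap, and within each litter the wild-type pup had the higher value. With the block their log2 fold changes in the narrowed set were 0.52 ± 0.07 (*Sycp1*, adjusted p = 1.4e-10), 0.49 ± 0.07 (*Smc1b*, adjusted p = 7.7e-08) and 0.60 ± 0.09 (*Tex12*, adjusted p = 3.9e-07), and without the block none of them passed (adjusted p = 0.49, 0.46 and 0.056).

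Of the 16 genes listed for meiotic cohesin, axis and synaptonemal complex, 13 were tested once *Rec8*, a rule gene, was set aside, as rule genes are in all list counts and medians here, and 10 were higher in wild type with the block in the narrowed set (the 5 above with *4930447C04Rik*, *Hormad1*, *Hormad2*, *Syce1* and *Syce2*), against 1 without it. None was higher in *Meioc*-null. The median log2 fold change was 0.36 over the 13 genes and 0.00267 over all genes tested. *Hormad2* reached the detection filter in wild type only (31.4% of cells against 24.3%), and of the other 12 genes, which reached it in both genotypes, 9 passed with a median of 0.34. The summed level of 8 early spermatocyte markers (*Prdm9*, *Gml*, *Meiob*, *Psma8*, *Dmc1*, *Tex101*, *Ly6k* and *Rad51ap2*, 3 of them rule genes and all with UMIs in every library) was 1715, 1312, 1305 and 1082 CPM in the narrowed set, most of it from *Tex101* (1196, 845, 905 and 681 CPM). The sum was higher in the wild-type pup of each litter, and its part in the differences of the axis genes was not tested. In the gate, 6 passed with the block and 2 without. *Rec8* itself, part of the rule, was at 142, 119, 166 and 128 CPM, and *Sycp3*, a gene of the axis at 495, 616, 511 and 504 CPM, had values that overlapped between genotypes.

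Of the 5 genes given above with their levels, the promoter windows of *Stag3*, *Sycp1* and *Tex12* are shown because they held at least 1 of the motifs searched, while those of *Sycp2* and *Smc1b* held none. Windows of other genes of the list with a match are not shown. Each window is 300 bases long and spans the start of transcription (RefSeq, GRCm38.p6) and is written 5′ to 3′ on the strand of the gene. Capitals mark CACGTG (the E-box bound by MAX dimers such as MGA-MAX), GGCGGGAA (E2F type) or CNCCTCAG (reported for STRA8), searched on both strands, with no overlap between marked motifs in these windows. The windows are chr5:138280259-138280558 (+) for *Stag3*, chr3:102936051-102936350 (-) for *Sycp1* and chr9:50561219-50561518 (-) for *Tex12*.
Stag3: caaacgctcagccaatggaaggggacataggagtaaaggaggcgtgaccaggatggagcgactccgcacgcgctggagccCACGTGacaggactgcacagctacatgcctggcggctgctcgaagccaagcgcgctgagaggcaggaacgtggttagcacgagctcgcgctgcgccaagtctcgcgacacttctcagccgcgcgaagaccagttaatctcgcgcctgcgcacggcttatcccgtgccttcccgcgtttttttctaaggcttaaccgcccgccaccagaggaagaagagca
Sycp1: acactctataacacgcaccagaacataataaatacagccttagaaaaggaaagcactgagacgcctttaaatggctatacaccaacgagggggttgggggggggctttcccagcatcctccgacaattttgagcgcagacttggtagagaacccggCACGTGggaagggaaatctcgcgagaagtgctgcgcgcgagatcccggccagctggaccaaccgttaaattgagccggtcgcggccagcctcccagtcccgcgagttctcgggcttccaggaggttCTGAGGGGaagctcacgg
Tex12: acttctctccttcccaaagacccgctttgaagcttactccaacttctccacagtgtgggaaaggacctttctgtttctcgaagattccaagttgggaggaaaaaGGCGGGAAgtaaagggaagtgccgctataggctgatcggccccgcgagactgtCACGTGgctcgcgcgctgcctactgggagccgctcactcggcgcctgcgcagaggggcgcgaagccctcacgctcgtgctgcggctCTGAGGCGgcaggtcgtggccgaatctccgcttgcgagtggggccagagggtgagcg
The E-box lay 170 bases before the RefSeq start of *Stag3*, 94 before that of *Sycp1* and 93 before that of *Tex12*. The GENCODE position of *Stag3* given above starts at 138280240, before its window. By that annotation its E-box lies inside the gene. Among the 16 genes of the list with a window, 7 held an E-box, 3 the E2F-type motif and 5 the STRA8-type motif, against 8.09%, 2.52% and 9.12% of all 27025 genes in the table (7.15%, 2.19% and 7.94% of its 32851 promoters). A match is a run of letters and not a measured binding site.

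Of 18 recombination genes tested, 15 had a log2 fold change above 0. That count is a description, since 4 of the 18 entered the test through wild type only. With the block in the narrowed set 5 were higher in wild type (*Hfm1*, *Hsf2bp*, *Mei1*, *Mnd1* and *Zcwpw1*), none was higher in *Meioc*-null, and none passed without the block. *Hfm1* and *Mei1* entered the test through wild type only, where they were higher, so their passing is no support for a difference, and among the 14 that reached the filter in both genotypes 3 passed. *Hsf2bp*, which brings BRCA2 to meiotic breaks, was at 77.4, 56.9, 40.7 and 36.9 CPM, with no overlap (0.80 ± 0.13 with the block, adjusted p = 2.7e-06). *Hfm1*, a meiotic helicase gene, was at 22.6, 31.7, 12.3 and 14.5 CPM and was detected in 31.4% of wild-type and 19.6% of *Meioc*-null cells. The median log2 fold change was 0.18 over the 18 genes and 0.11 over the 14.

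*Gm4969* (*Meiosin*), the partner of *Stra8*, was at 24.0, 22.2, 9.58 and 12.6 CPM in the narrowed set, on 104, 91, 32 and 54 UMIs. Both wild-type values exceeded both *Meioc*-null values. It was detected in 30.6% of wild-type and 14.95% of *Meioc*-null cells and so entered the test through wild type only, and its log2 fold change of 1.06 ± 0.24 without the block (adjusted p = 0.10) and 1.06 ± 0.20 with it (adjusted p = 6.8e-05) is given as a description. *Stra8* stood at 344, 336, 497 and 434 CPM, but it is capped by the rule and its difference is a description. The same cap was applied to both genotypes. Whether it took cells at the same point of the stage in each genotype was not tested, and this limit holds for all genotype differences given here. *Meioc* itself was at 437, 444, 444 and 363 CPM in the narrowed set, so its 3′ transcript counts did not separate the genotypes and the targeted gene gave no check of the labels. *Ythdc2* and *Rbm46* were not called in any of the 4 fits.

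**Figure D3:**
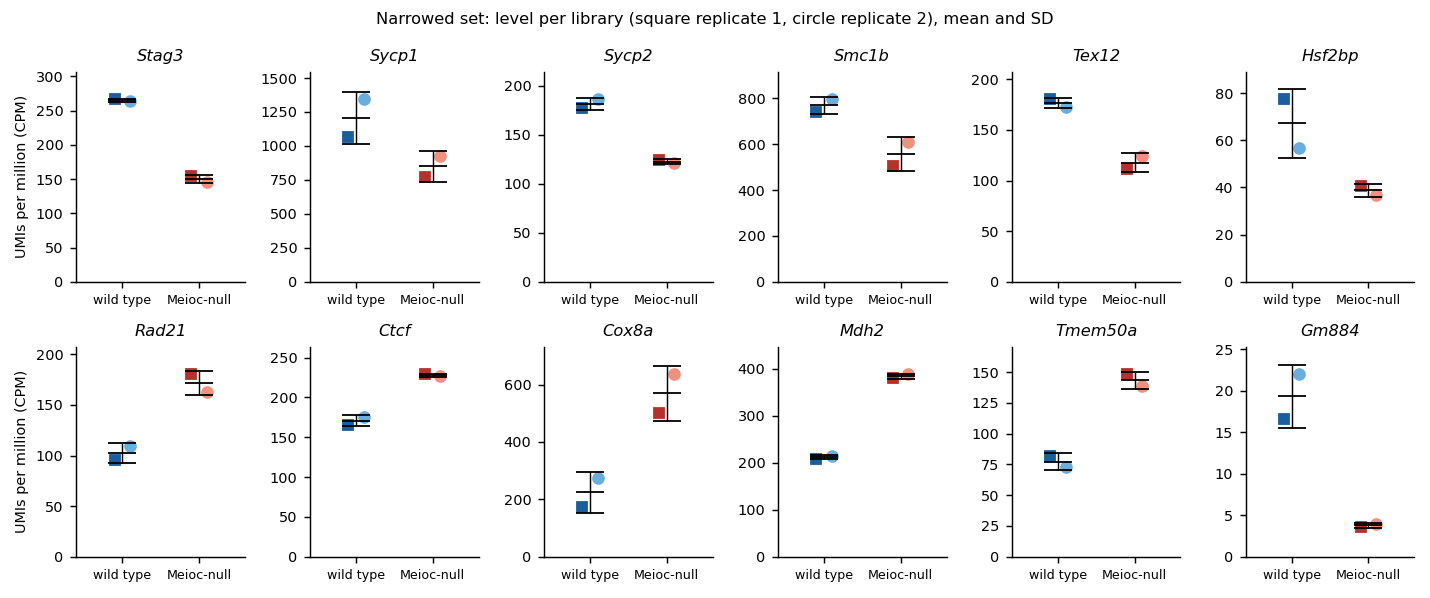
Levels (CPM, linear axes from 0) of 12 genes in the narrowed set, with squares for replicate 1, circles for replicate 2 and horizontal lines for the mean and SD of each genotype (n = 2). The upper 6 genes are higher in both wild-type libraries; *Rad21*, *Ctcf*, *Cox8a*, *Mdh2* and *Tmem50a* are higher in both *Meioc*-null libraries, and *Gm884* is higher in wild type.

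Of 18 genes of CTCF and mitotic cohesin tested, 2 were higher in *Meioc*-null with the block in the narrowed set, *Rad21* and *Ctcf*, and 8 had a log2 fold change above 0 (median -0.06). *Rad21*, the mitotic kleisin, is among the repressors that the study chose from these samples. It was at 95.9, 110, 180 and 163 CPM in the narrowed set, with both *Meioc*-null values above both wild-type values. Its log2 fold change of -0.71 ± 0.12 passed without the block (adjusted p = 0.025), and in the gate, where it was at 106, 129, 182 and 160 CPM, only with it (-0.52 ± 0.11, adjusted p = 0.0046). *Ctcf* was at 166, 176, 229 and 226 CPM (-0.39 ± 0.09 with the block, adjusted p = 0.0011; adjusted p = 0.33 without). *Ctcfl*, part of the rule, was at 86.3, 74.3, 67.2 and 50.7 CPM in the gate.

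The study had named 8 repressors from these samples, so their count is not independent evidence of a direction. With the block in the narrowed set, 6 of the 8 were higher in *Meioc*-null (*E2f6*, *Hnrnpab*, *Mga*, *Rad21*, *Sp3* and *Suz12*), against 1 without it, and the median was -0.33. *E2f6* was at 22.9, 23.4, 40.4 and 34.5 CPM (-0.67 ± 0.16, adjusted p = 0.0027). *Mga* was at 120, 114, 166 and 136 CPM (-0.34 ± 0.10, adjusted p = 0.017). Neither overlapped between genotypes. They were the only calls among 15 tested PRC1.6 genes, whose median was 0.00287.

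The 5 genes with the smallest p among those higher in *Meioc*-null cells of the narrowed set are given in that order. *Tmem50a*, a membrane protein gene, was at 82.0, 72.5, 148 and 138 CPM (-0.87 ± 0.12, adjusted p = 0.0072). *Cmas*, the enzyme that activates sialic acid, was at 63.5, 63.2, 119 and 109 CPM (-0.82 ± 0.12, adjusted p = 0.010). *Mindy2*, a deubiquitinase gene, was at 46.4, 46.6, 92.5 and 81.9 CPM (-0.88 ± 0.13, adjusted p = 0.011). None of these overlapped between genotypes. *Mdh2*, mitochondrial malate dehydrogenase, was at 209, 215, 381 and 388 CPM (-0.84 ± 0.13, adjusted p = 0.012). *Stxbp3*, a syntaxin-binding protein gene, was at 35.1, 32.5, 66.8 and 63.0 CPM (-0.92 ± 0.15, adjusted p = 0.016). Both again had higher values in both *Meioc*-null libraries. *Rad21* aside, the next by p were *Pgam1*, *Tubb5*, *Ro60* and *Smagp* (both entering through *Meioc*-null only), *Tfam* and *B230219D22Rik*, at -1.12 to -0.62. *Cox8a*, a subunit of cytochrome c oxidase, was at 174, 275, 502 and 636 CPM and passed with the block only (-1.34 ± 0.08, adjusted p = 2.3e-33, against 0.098 without).

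*Gm884* (chr11:103534577-103621140, - strand), the other gene besides *Stag3* that was called higher in wild type in the narrowed set, was at 16.6, 22.0, 3.59 and 3.97 CPM in the narrowed set on 72, 90, 12 and 17 UMIs. The genotypes did not overlap. It was detected in 25.6% of wild-type and 5.84% of *Meioc*-null cells and entered the test through wild type only, so the fitted value of 2.35 ± 0.31 on the log2 scale (adjusted p = 0.0072) is a description. *Gm884* lies 852340 bases from *Meioc* on the same chromosome, and the part of that position in the result was not tested. *Rsph1*, a radial spoke gene, was at 48.7, 61.6, 22.9 and 23.4 CPM in the gate (1.27 ± 0.17, adjusted p = 0.00042, again entering through wild type only) and at 39.7, 23.2, 8.09 and 4.20 CPM in the narrowed set, where it fell under the detection filter. It was at 69.2 to 90.9 CPM in Sertoli cells.

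In the narrowed set with the block, where 4.94% of all genes passed, 2 of 40 S phase genes did (*Prim1* higher in wild type, *Cdca7* higher in *Meioc*-null), as did 3 of 51 G2/M genes (*Hmgb2* higher in wild type, *Ctcf* and *Hjurp* higher in *Meioc*-null), with medians of 0.0196 and 0.0183. Among 14 piRNA pathway genes *Fkbp6* and *Mael* were higher in wild type (median 0.25). *Mael* was at 177, 175, 116 and 146 CPM. *Dnmt3a* was the single call among 14 spermatogonial factors, at 77.9, 69.8, 118 and 89.1 CPM and higher in *Meioc*-null, and no call was made among 6 retinoic acid genes, 25 cyclins and CDK regulators or 10 X-linked germ cell genes. Without the block no gene of these lists passed. Of 6 dissociation stress genes, *Jund* passed with the block only, at 211, 121, 245 and 191 CPM, with overlapping groups. In the gate 4 of 8 passed with the block, *Egr1*, *Fos*, *Fosb* and *Jun*, all higher in *Meioc*-null (median -0.37; *Fosb* entered through *Meioc*-null only, and without it 3 of 7 passed), and without it *Egr1* alone. *Egr1* was at 68.8, 63.5, 143 and 93.3 CPM in the gate. It was at 450 to 876 CPM in Sertoli cells and at 7.32 to 20.1 CPM in the narrowed set.

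**Figure D4:**
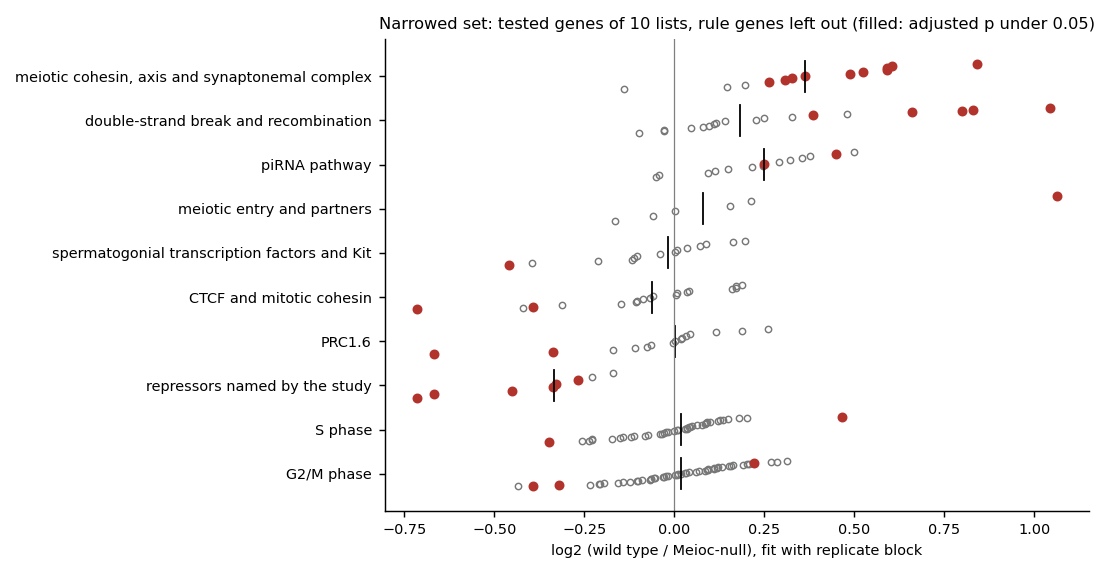
Log2 fold change (wild type/*Meioc*-null) of each tested gene of 10 lists, rule genes left out, in the narrowed set, fitted with the replicate block; filled red points passed (adjusted p below 0.05, beyond 0.1), open points did not. The black bar is the median of the list. The meiotic cohesin, axis and synaptonemal complex list has 10 of 13 genes filled on the wild-type side, and the repressor list 6 of 8 on the *Meioc*-null side. Without the block 1 gene of each of these lists passed. The study chose the repressors from these samples, so their direction is not independent evidence.

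The late B stage was then set between its neighbours by testing, gene by gene, whether the genotype difference changed from 1 stage to the next in the same libraries. With all gated cells the *Dmrtb1*-positive comparison called 1273 of 7459 genes (17.1%), but that gate also held cells with pachytene markers in the wild-type libraries. There *Ldhc*, a germ cell lactate dehydrogenase, was at 1037 and 572 CPM, against 0.0519 and 0.130 CPM in *Meioc*-null. The changes of *Tex12*, *Sycp2* and *Sycp1* turned sign in the narrowed sets. Cells with the somatic or undifferentiated markers above were removed from all of these sets. Cells with over 10 UMIs of 8 pachytene markers were removed from the *Dmrtb1*-positive and preleptotene sets but not from the late B set. In the narrowed late B set these 8 markers summed to 241, 201, 193 and 205 CPM. The part of each removal was not tested. In the narrowed sets the genotype difference of 41 of 6895 genes (0.595%) changed from *Dmrtb1*-positive to late B cells, 11 (0.160%) toward wild type and 30 (0.435%) toward *Meioc*-null. The count was 19, 20, 67 and 89 without wild type 1, wild type 2, *Meioc*-null 1 and *Meioc*-null 2.

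Toward wild type changed *Stag3* (by 0.54 ± 0.09 on the log2 scale, adjusted p = 4.6e-05), *Smc1b* (0.41 ± 0.06, adjusted p = 2.1e-05), *Sycp1* (0.32 ± 0.05, adjusted p = 0.00023), *Sycp2* (0.40 ± 0.09, adjusted p = 0.025) and *Tex12* (0.39 ± 0.10, adjusted p = 0.035), which were 5 of the 13 axis genes tested. With all gated cells 8 of the 13 were called, 2 toward wild type and 6 toward *Meioc*-null, with a median of -0.31. In that fit 3.28% of all genes changed toward wild type and 13.8% toward *Meioc*-null. *Stag3* was at 180, 161, 145 and 136 CPM in *Dmrtb1*-positive cells, so the wild-type libraries rose further on the way to late B cells. *Smc1b* went from 669, 770, 663 and 719 CPM to 742, 796, 506 and 611 CPM: it was higher at the later stage in both wild-type libraries and lower in both *Meioc*-null ones. *Stag3* and *Smc1b* passed with each library left out, while *Sycp1* passed in 3, *Sycp2* in 2 and *Tex12* in 1 of the 4 such fits, with adjusted p reaching 0.105, 0.698 and 0.416.

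Toward *Meioc*-null changed *Cox8a* (-0.72 ± 0.07, adjusted p = 3.5e-11), *Tmem50a* (-0.67 ± 0.10, adjusted p = 2.0e-05), *Mdh2* (-0.48 ± 0.07, adjusted p = 2.4e-05) and *Rad21* (-0.40 ± 0.09, adjusted p = 0.018). *Mdh2* fell from 343, 329, 450 and 420 CPM to 209, 215, 381 and 388 CPM, a larger drop in the wild-type libraries. *Tmem50a* went from 107, 93.6, 123 and 110 CPM to 82.0, 72.5, 148 and 138 CPM, down in wild type and up in *Meioc*-null. The first 3 passed with each library left out, but *Rad21* in 1 of 4 such fits (adjusted p up to 0.387), and with all gated cells the change of *Rad21* was 0.017 and was not called.

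Between late B and preleptotene cells the genotype difference of 326 of 6153 genes (5.30%) changed in the narrowed sets, 112 (1.82%) toward wild type and 214 (3.48%) toward *Meioc*-null. With all gated cells it was 506 of 6351 (7.97%, 3.98% in each direction), and 263 genes were shared. The count in the narrowed sets was 181, 141, 541 and 256 without wild type 1, wild type 2, *Meioc*-null 1 and *Meioc*-null 2. *Sycp1* (-0.42 ± 0.07, adjusted p = 0.0044), *Sycp2* (-0.49 ± 0.08, adjusted p = 0.0039) and *Smc1b* (-0.33 ± 0.08, adjusted p = 0.0315) changed back toward *Meioc*-null. *Sycp2* stood at 329, 359, 324 and 339 CPM in preleptotene cells, with overlapping genotypes, after 177, 186, 125 and 121 CPM in late B cells. *Smc1b* passed in 2 and *Sycp1* and *Sycp2* in 3 of 4 fits with a library left out, and *Stag3* (-0.26 ± 0.08, adjusted p = 0.058) and *Tex12* (0.08 ± 0.09, adjusted p = 0.63) did not pass. This comparison uses the same late B libraries as the one before it.

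Of 47 G2/M genes tested between late B and preleptotene cells, 16 changed toward *Meioc*-null and none toward wild type. *Cks2*, a CDK subunit gene, was at 253, 260, 210 and 273 CPM in late B cells, where the genotypes overlapped, and at 63.0, 76.2, 162 and 192 CPM in preleptotene cells (change of -1.41 ± 0.10, adjusted p = 1.3e-06). *Cenpa*, the centromeric histone, went from 377, 361, 314 and 333 CPM to 51.4, 60.6, 116 and 122 CPM (-1.25 ± 0.10, adjusted p = 4.7e-06). *Cdc20*, an activator of the anaphase-promoting complex, went from 224, 202, 166 and 193 CPM to 49.6, 48.7, 84.6 and 86.5 CPM (-1.03 ± 0.11, adjusted p = 5.0e-05). In all 4 libraries these 3 genes dropped, further in wild type. The narrowed preleptotene sets held 402, 392, 1132 and 747 cells, and their gate had no cell cycle term. The part of the mix of cells in these drops was not tested.

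**Figure D5:**
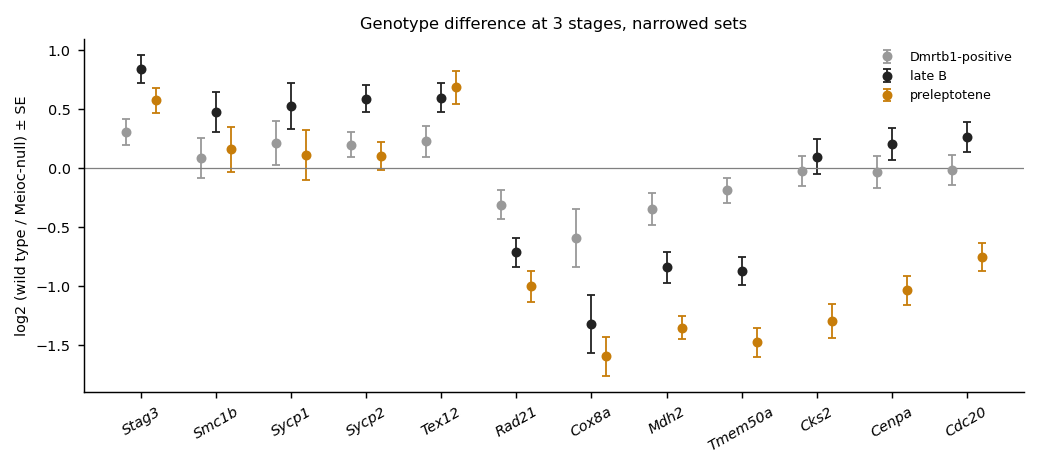
Log2 fold change (wild type/*Meioc*-null, points) and SE (bars) of 12 genes in *Dmrtb1*-positive (grey), late B (black) and preleptotene cells (orange), narrowed sets, without the block. *Stag3*, *Smc1b*, *Sycp1* and *Sycp2* are furthest above 0 in late B cells, *Cox8a*, *Mdh2* and *Tmem50a* move further below 0 from stage to stage, and *Cks2*, *Cenpa* and *Cdc20* lie well below 0 in preleptotene cells.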

How the data were processed

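The 4 libraries of testis cells were grouped by genotype and replicate as labelled. Per the labels and the study's methods, the authors made 10x Genomics libraries, counted UMIs with Cell Ranger 4.0.0 against its mm10 (GRCm38) reference and deposited raw UMI counts per gene and barcode, unnormalised. Barcodes had passed Cell Ranger's cell calling but not the study's later filters. Here barcodes with more than 1000 genes and less than 10% mitochondrial UMIs were kept. The members of the gate, the gene lists and the tests were chosen with earlier results of these data known.

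UMIs were summed per library over the gated cells. Every gene detected in 25% or more of the wild-type or of the *Meioc*-null cells entered edgeR 4.0.16 in R 4.3.3 (TMM, robust quasi-likelihood F-test), with the Benjamini-Hochberg adjusted p below 0.05 and a log2 fold change beyond 0.1 as the threshold. The SE is the fold change divided by the square root of F, so it rests on the moderated spread as well. Stage by genotype terms were fitted with a term for each library. Genes of the rule stayed in the fits but were left out of the list counts and medians, and their levels are given as a description. Replicate numbers mark litters and also the batches in which libraries were prepared and sequenced, so litter and batch cannot be told apart. Same-numbered libraries deviated together from their group means (r = 0.336 over genes in the gate and 0.472 in the narrowed set). The blocked fit is therefore given where it changes a call. Shares were compared by exact permutation over libraries. Scripts were tested on simulated data.

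Doublets were scored with Scrublet (scanpy 1.11.5) at 0.8% per 1000 barcodes and removed only as an alternative. Other alternatives were DESeq2 1.42.0 and its size factors, other detection filters, a 5% mitochondrial limit, other *Rec8*, *Ctcfl* and *Stra8* limits, leaving out the rule genes and leaving out each library. The narrowed sets and everything fitted on them were chosen after seeing the data. Gene positions are GENCODE vM21 and promoters RefSeq, both GRCm38.

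Named genes were those of the rule with *Esx1* and *Sohlh1*, list genes that passed, up to 12 per direction by p with the same direction in both batches, the 20 highest stage ratios, up to 6 per direction of each stage test, and up to 3 examples per list. *Kit*, *Ccnd2*, *Ythdc2*, *Sycp3*, *Ldhc*, *Hbb-bs* and the genes given at a stage where they did not pass were named after their values were seen. Promoters were matched by symbol, and those of *Ctcfl*, *Gm4969* and *Rad21* were not analysed here.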

Additional observations from a re-analysis of the deposited data

Results flagged for a closer look

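In the narrowed sets, the difference between genotypes itself changed between neighbouring stages for the genes given here, by a test of that change (edgeR, adjusted p below 0.05). From *Dmrtb1*-positive to late B cells it changed toward wild type for *Stag3* (0.54), *Stk31* (0.46), *Smc1b* (0.41), *Ly6k* (0.40), *Sycp1* (0.32) and *Bc1* (0.27). It changed toward *Meioc*-null for *Smagp* (-1.05), *Tubb5* (-0.94), *Wdcp* (-0.87), *Cox8a* (-0.72), *Tmem50a* (-0.67) and *Mdh2* (-0.48). *Smagp* reached the detection filter in late B cells through *Meioc*-null only, where it was higher, so its value is a description. Entry through 1 genotype was not examined in the other stages. *Bc1* and *Stk31* passed in only 1 of 4 fits with a library left out, and *Ly6k* in 2. With all gated cells *Stk31* (-0.56), *Ly6k* (-1.37) and *Sycp1* (-0.19) had the opposite sign. *Tubb5*, at 25.9, 29.1, 54.5 and 53.2 CPM in the narrowed set, was at 853 to 1141 CPM in Sertoli cells, and the part of residual Sertoli transcripts in its value was not tested.

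From late B to preleptotene cells the difference changed toward wild type for *Hspa13* (1.10), *AC149090.1* (1.06), *Txnrd3* (0.85), *Tsen34* (0.74), *Bc1* (0.72) and *Dnajb11* (0.57). *Bc1*, a small non-coding RNA, was at 1177, 841, 828 and 777 CPM in late B cells and at 1462, 1016, 657 and 560 CPM in preleptotene cells. Toward *Meioc*-null changed the mitotic genes *Cks2* (-1.41), *Ube2c* (-1.38), *Cenpa* (-1.25) and *Cdc20* (-1.03), with *Nfyb* (-0.98) and the X-linked *Usp26* (-0.79). All 12 of these passed with each library left out. *Usp26* was at 494, 544, 458 and 491 CPM in late B cells and at 222, 259, 373 and 399 CPM in preleptotene cells.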

How the results depend on the processing

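Counts of genes depended on the cells and on the fit. The 5% mitochondrial limit given below left only 33, 42, 27 and 17 cells of the gate in the 4 libraries. In the gate the 16 genes became 2 without the top-scoring Scrublet barcodes, 391 with a 5% mitochondrial limit, 2 with *Stra8* at 0 UMIs, 66 with *Rec8* and *Ctcfl* at 2 per 10000 UMIs, 10 without somatic-marker cells, 127 with filterByExpr, 44 with a 10% detection filter, 128 with the replicate block, 348 in the narrowed set with it, and 30 to 108 with a library left out. In the narrowed set the 17 became 11 with filterByExpr, 348 with the replicate block, 193 with it and without the Scrublet barcodes, and 7 to 41 with a library left out. The stage tests went from 1273 to 41 (*Dmrtb1*-positive to late B) and from 506 to 326 (late B to preleptotene) in the narrowed sets; with a library left out they ranged from 655 to 1354 and from 281 to 597, and in the narrowed sets from 19 to 89 and from 141 to 541. The causes were not tested.

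The share difference of 0.296 points turned to -0.0786 at 2 or more UMIs of *Rec8* and *Ctcfl* and ranged from -0.707 (without wild type replicate 1) to 1.30 with a library left out. Summed lists, rule genes included and given with no test, turned sign on the log2 scale. CTCF and mitotic cohesin (0.000745) read -0.0239 without the Scrublet barcodes, -0.0214 and -0.0202 at 2 and 4 UMIs, -0.0831 with *Stra8* at 0, -0.0453 per 10000 UMIs, -0.0353 without somatic-marker cells and -0.0416 in the narrowed set. Cyclins and CDK regulators (0.000675) read -0.0312, -0.0167 and -0.0875, -0.109 per 10000, -0.0327 and -0.0596 in the same settings apart from *Stra8*. Spermatogonial factors (0.0606) read -0.000961 at 4 UMIs, -0.167 with *Stra8* at 0, -0.00403 without somatic-marker cells and -0.0218 narrowed. Meiotic entry (-0.0119) read 0.0832 at 5% mitochondrial and 0.349 with *Stra8* at 0, PRC1.6 (-0.0214) 0.101 at 5%, the piRNA pathway (0.233) -0.200 with *Stra8* at 0, and dissociation stress (-0.417) 0.0429 without the Scrublet barcodes.

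Of 1075 values of 58 named genes under 19 settings, 841 kept direction and status (called or not called), 70 lost the call, 148 gained it and 16 turned sign. Only the 16 genes called in the gate had a call to lose. The others were named because they passed in the narrowed set, with or without the block. The 12 calls gained there without the block and the 42 with it therefore follow from that choice. With *Stra8* at 0 the values that turned sign were *Mindy2* 0.035, *Ddx4* -0.24, *Fez2* 0.31, *Jund* 0.019, *Mael* -0.59, *Mnd1* -0.11 and *Pgam1* 0.12. That setting rests on 8 to 37 cells per library. *Egr1* was 0.40 without the Scrublet barcodes and *Hjurp* 0.10 at 5% mitochondrial. *Mylk* was 0.30 without somatic-marker cells, 0.32 in the narrowed set and 0.31 with its block, and *Tpm1* 0.16, 0.092 and 0.090 there and 0.016 per 10000 UMIs. With all gated cells the change from *Dmrtb1*-positive cells was -0.19 (*Sycp1*), -1.01 (*Sycp2*), -0.34 (*Tex12*), 0.017 (*Rad21*), -0.56 (*Stk31*) and -1.37 (*Ly6k*), and that of *Tex12* to preleptotene ranged from -0.0036 (without *Meioc*-null replicate 1) to 0.26 with a library left out. The replicate block lost no call of either cell set. With 211 to 249 cells per library in the narrowed set, low transcripts such as *Gm4969* rest on 32 to 104 UMIs.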
